A study of Mus musculus with 7 samples.

Results

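The retinal pigment epithelium (RPE) is a pigmented epithelial sheet behind the neural retina, and it forms no synapses. Described here are 43 synaptic and neuronal genes in dissected mouse RPE of a control and a Dicer1-deficient group. Dicer1 encodes the ribonuclease that makes mature microRNAs from their hairpins. The members were chosen by name, from knowledge of neuronal gene function and from an earlier look at the same Dicer1-deficient against control comparison. Of the 43 genes, 41 were measured among 5017 genes with a probe set of 1 gene symbol, and Map1b and Rasgrf2 were not analysed here. The table ends at 65535 rows, a limit of older spreadsheet formats, and may hold only part of the array: all 41 lie on chromosomes 1 and 10 to 13. Shares of all genes, and counts of markers measured, refer to the genes of this table. Because the comparison itself had guided the choice, the differences and threshold calls of the members are given as a description and support nothing by themselves.

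There were 4 control arrays and 3 Dicer1-deficient arrays, each of total RNA from RPE of pups at postnatal day 5. Mice carrying Dicer1 flox/+ and Dct-Cre were mated with Dicer1 flox/flox mice, so every pup inherited at least 1 floxed Dicer1 allele. The deficient group is Dicer1loxP/loxP;Dct-Cre. Cre is driven there by the promoter of dopachrome tautomerase, a pigment enzyme, so deletion is directed to pigment cells. The labels call the other group control RPE and do not give the genotype of these pups, nor whether an array held 1 animal or a pool. They also do not say that arrays came from separate animals, so a test measures only the spread between these 7 arrays.

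Neurons release transmitter when calcium enters the nerve terminal and synaptotagmins, complexins and SNARE proteins fuse vesicles with the membrane. The postsynaptic side holds receptors on scaffolds such as those of the Dlg, Homer and gephyrin families, and kinesins and microtubule-associated proteins supply axons and dendrites. Several of these genes also act outside neurons: gephyrin makes the molybdenum cofactor in many tissues, Stx8 serves endosomal traffic, and ankyrin-G, the product of Ank3, organises the lateral membrane of epithelial cells.

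The arrays differed in ways the groups do not explain. Control 4 had a median signal of 6.05 over the table against 6.22 to 6.26 for the other arrays, and its correlation with them across probe sets was 0.942 to 0.951. The other controls correlated with each other at 0.986 to 0.988 and the deficient arrays at 0.980 to 0.984. For the tissue itself, the 4 measured of 16 listed RPE markers had a mean log2 signal of 11.67 to 11.85 in the controls and 11.29 to 11.39 in the deficient arrays. By the threshold given below 1 of them passed, the potassium channel gene Kcnj13, lower by 1.19. With all probe sets of a gene averaged, 2 of the 4 passed, Kcnj13 and, lower by 0.72 (SE 0.11), the retinol dehydrogenase gene Rdh5. Pmel and Serpinf1 were also lower there, at -0.21 (SE 0.08) and -0.29 (SE 0.11), without passing.

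Signals are log2 values. Each gene was read in 2 ways: from its probe set with the highest mean signal over the 7 arrays (the brightest probe set), and from the mean of all its probe sets, of which the members had 3 to 54 (median 16). A probe set covers only part of a gene. Differences are deficient minus control, with the standard error (SE) of the limma fit. A gene is called past the threshold when its limma p-value, adjusted by Benjamini-Hochberg over all 5017 genes, was below 0.05. Unadjusted limma p-values under 0.05, and probe sets of a gene whose groups do not overlap, are also counted. For these counts the shares over the whole table were not worked out, so nothing is read from them.

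On the brightest probe set, 4 of the 41 members passed the threshold. Nyap2, Trim9 and Amph rose and Nsg2 fell, and the other 37 did not pass. The share called was 9.76%, against 2.33% of all genes (1.42% higher and 0.917% lower), and nothing is read from this because the comparison had guided the choice. The median difference of the members was 0.03, against -0.01 for all genes, with 23 positive and 18 negative. The 37 that did not pass ranged from -1.05 to 0.51, and 33 of them lay under 0.5 in size. In 7 members no deficient array fell within the range of the controls, nor any control within theirs (Nyap2, Trim9, Amph, Nsg2, Homer1, Gphn and Nptx1), against 16.3% of all genes, and 7 of 41 is close to that background. In these bulk samples, a change in the number of cells of a type and a change in RNA per cell cannot be told apart.

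**Figure D1:**
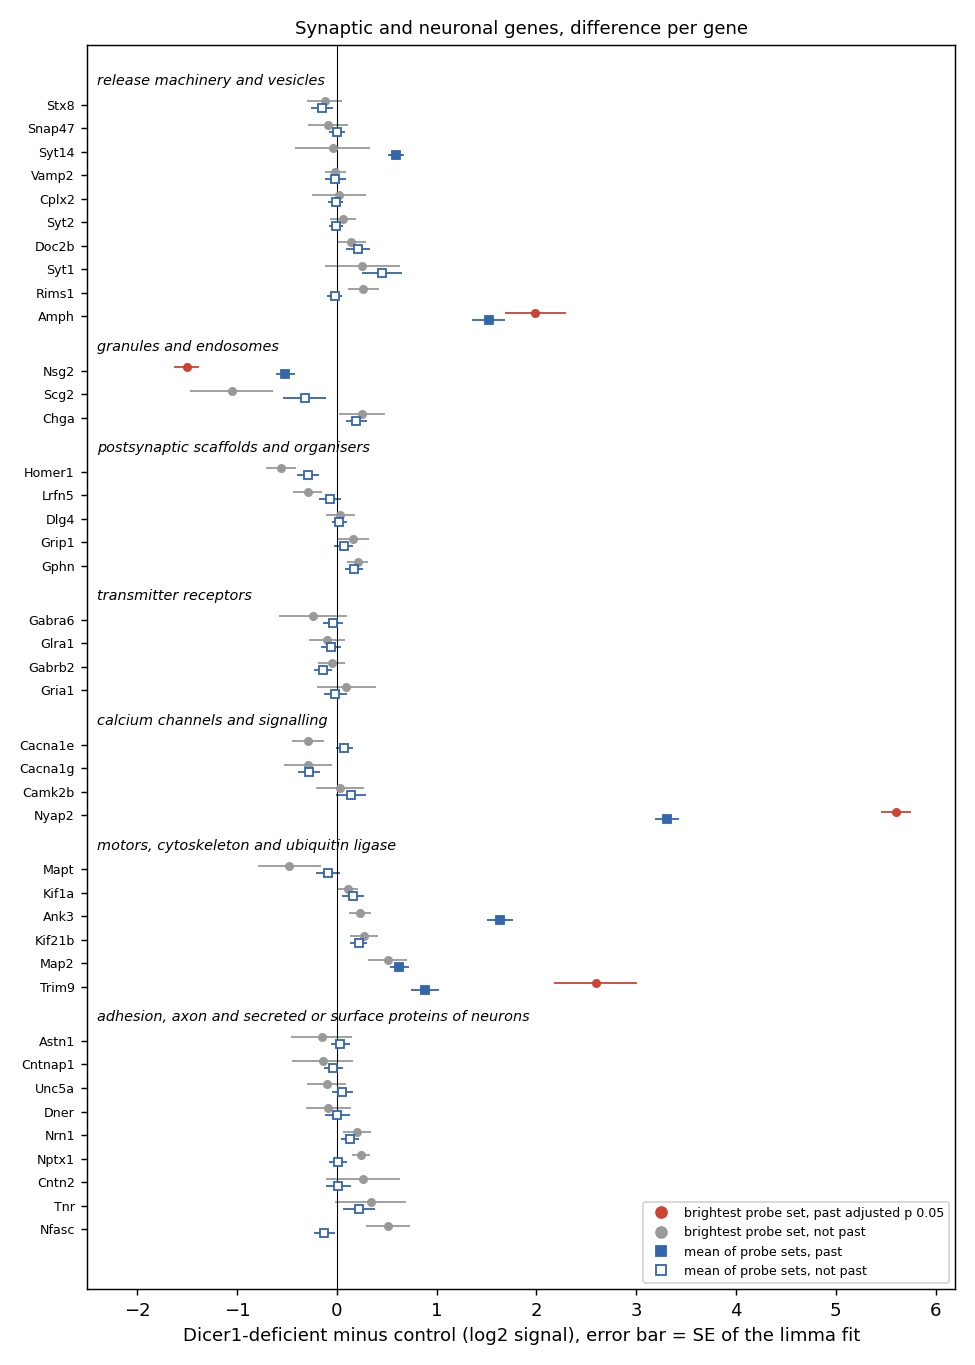
Difference in log2 signal, Dicer1-deficient minus control, of the 41 measured members by role, as the brightest probe set (circles) and as the mean of all probe sets (squares), with the SE of the limma fit as bars. Filled red circles and filled blue squares mark members past the threshold. Nyap2, Trim9 and Amph lie far to the right and Nsg2 to the left on both values, while Ank3, Map2 and Syt14 pass on the squares only.

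On the mean of probe sets, 7 members passed: the same 4 and, all higher, Ank3, Map2 and Syt14. The background was wider here, with 5.86% of all genes called (3.03% higher and 2.83% lower), and the median of the members was 0.02 against -0.01. Of the 810 probe sets of the members, 52 passed the threshold when adjusted over all 65535 probe sets, 50 higher and 2 lower. That is 6.42%, against 0.856% of all probe sets (0.533% higher and 0.323% lower). They lay in 6 genes: 30 in Ank3, 9 in Amph, 7 in Nyap2, 3 in Trim9, 2 in Nsg2 and 1 in Syt14, so that 22 of the 756 probe sets outside Ank3 passed. The other 35 members had no probe set past the threshold.

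**Figure D2:**
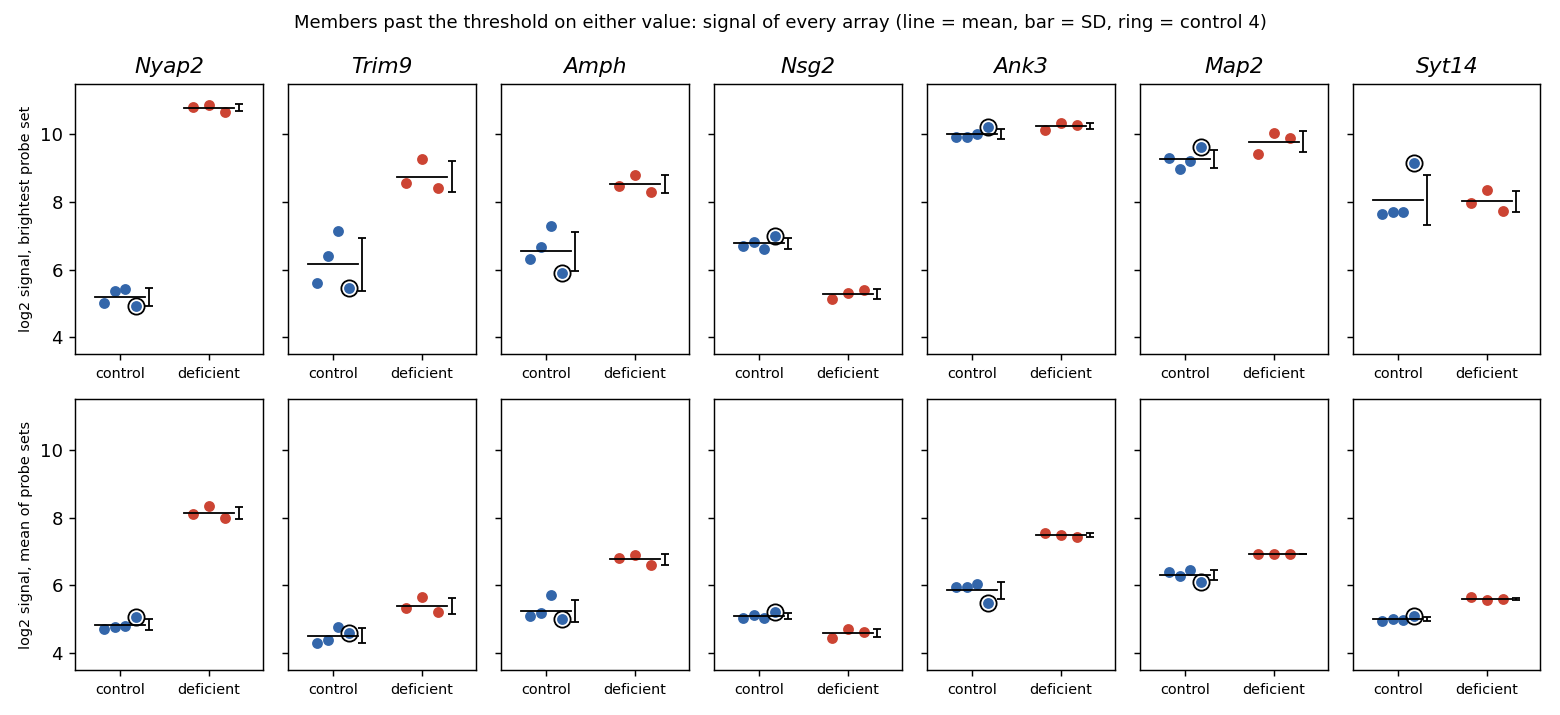
Log2 signal in each of the 4 control (blue) and 3 Dicer1-deficient (red) arrays for the 7 members past the threshold on either value, with the group mean as a line and the SD as a bar. The upper panels show the brightest probe set and the lower panels the mean of all probe sets. The ring marks control 4, which at 9.16 stands above the other controls of Syt14 on the brightest probe set.

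The first member to describe in full is Nyap2, an adaptor of neurons that binds phosphoinositide 3-kinase. In controls 1 to 4 its brightest probe set read 4.9996, 5.38, 5.44 and 4.93, and in the 3 deficient arrays 10.82, 10.88 and 10.67. No array of a group came near the other group. The mean went from 5.19 ± 0.26 (SD, n = 4) to 10.79 ± 0.11 (SD, n = 3), a difference of 5.60 (SE 0.15) or 48.6-fold. The control mean lay below the median of the whole table, 6.22, and no detection value shows that the probe set measured Nyap2 RNA in the controls, so this fold has no firm denominator. All 8 of its probe sets were higher without overlap between groups, by 1.34 to 5.60 with a median of 3.29, and 7 of them passed. The mean of its probe sets differed by 3.31 (SE 0.12).

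Trim9 encodes a ubiquitin ligase enriched in neurons that acts in netrin-guided axon branching. Its brightest probe set read 5.60, 6.41, 7.13 and 5.47 in the controls and 8.57, 9.26 and 8.40 in the deficient arrays. The groups were apart, and the controls spread widely, with controls 1 and 4 low and control 3 high. The mean went from 6.15 ± 0.78 (SD, n = 4) to 8.75 ± 0.46 (SD, n = 3), a difference of 2.59 (SE 0.42) or 6.03-fold, with the same limit, since its control mean was also below the median of the table. Of its 15 probe sets 14 were higher, 10 had groups that did not overlap and 3 passed. Their median difference was 0.80, and the mean of probe sets rose by 0.88 (SE 0.14).

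Amph encodes amphiphysin, a membrane-bending protein of synaptic vesicle endocytosis. The control signals were 6.31, 6.66, 7.28 and 5.90 and the deficient signals 8.48, 8.81 and 8.30. The groups did not overlap, and control 3 was again the highest control and control 4 the lowest. The mean went from 6.54 ± 0.59 (SD, n = 4) to 8.53 ± 0.26 (SD, n = 3), a difference of 1.99 (SE 0.31) or 3.97-fold. All 19 probe sets of Amph were higher, by 0.26 to 2.49 with a median of 1.81. In 17 of them the groups lay apart, 9 passed, and the mean of probe sets rose by 1.52 (SE 0.16).

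The 7 arrays stood in the same order in Amph and Trim9, from control 4 through controls 1, 2 and 3 to deficient arrays 3, 1 and 2. The order was taken from these genes after their values were seen. It was also that of 11 other genes, 1 of them a member, Nyap2. The calls of both genes on the brightest probe set did not stand in every smaller set of arrays: without control 1, without control 2, or without any 1 of the deficient arrays, 2 members passed in place of 4, Nyap2 and Nsg2. Over the settings with 1 array left out, the difference of Amph stayed between 1.78 and 2.24 and that of Trim9 between 2.33 and 2.92. Both genes passed on the mean of probe sets whichever array was left out.

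Nsg2, which encodes a membrane protein of neuronal endosomes, was the member that fell. It read 6.71, 6.82, 6.60 and 6.99 in the controls and 5.12, 5.31 and 5.40 in the deficient arrays. Every deficient array was below every control. The mean went from 6.78 ± 0.16 (SD, n = 4) to 5.28 ± 0.14 (SD, n = 3), a difference of -1.50 (SE 0.13). The deficient mean lay below the median of the table, so the 2.84-fold ratio of these signals has the same limit as that of Nyap2. Of its 7 probe sets 6 were lower, 3 had groups that did not overlap and 2 passed, at -1.50 and -1.16. The median over probe sets was -0.27. Its mean of probe sets fell by 0.52 (SE 0.09), and Nsg2 did not pass there without deficient array 1 or without deficient array 3, which left 6 members past the threshold.

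The start regions of these 4 genes are printed because they carried the calls on the brightest probe set. Each is the RefSeq promoter window of build GRCm38.p6, from 250 bases before to 50 bases after a transcription start, 5′ to 3′ on the strand of the gene. Capitals mark a match, on either strand, to any of the 6 hexamers searched. The letters AGCACC and, further on, GGACAG belong to the site of REST, a repressor of neuronal genes outside neurons. The letters GGGCGG are the GC box of SP1, and those of the core promoter element bound by TBP are TATAAA. The pigment cell factor MITF binds an E-box with the letters CATGTG, and the homeodomain factors CRX and OTX2 a site with the letters TAATCC.
Nyap2, chr1:81076700-81076999, plus strand: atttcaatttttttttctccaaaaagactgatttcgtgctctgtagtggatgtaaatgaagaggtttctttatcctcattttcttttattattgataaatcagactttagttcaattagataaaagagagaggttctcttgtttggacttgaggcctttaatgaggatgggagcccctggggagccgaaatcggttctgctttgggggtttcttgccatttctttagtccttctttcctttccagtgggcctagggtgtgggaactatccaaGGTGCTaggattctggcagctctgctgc
Amph, chr13:18948101-18948400, plus strand: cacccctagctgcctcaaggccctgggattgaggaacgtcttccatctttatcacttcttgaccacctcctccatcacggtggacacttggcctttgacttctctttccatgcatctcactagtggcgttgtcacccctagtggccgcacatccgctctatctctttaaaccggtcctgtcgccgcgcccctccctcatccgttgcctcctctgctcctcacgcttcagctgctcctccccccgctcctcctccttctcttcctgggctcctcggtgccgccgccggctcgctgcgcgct
Trim9, chr12:70347565-70347864, minus strand: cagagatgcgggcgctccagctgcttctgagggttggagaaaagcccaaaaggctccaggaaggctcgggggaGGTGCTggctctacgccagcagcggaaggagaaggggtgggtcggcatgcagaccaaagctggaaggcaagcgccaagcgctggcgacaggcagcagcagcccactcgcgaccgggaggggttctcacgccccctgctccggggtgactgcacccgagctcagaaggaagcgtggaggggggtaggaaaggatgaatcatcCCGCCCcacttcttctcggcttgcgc
Nsg2, the second of its start sites, chr11:32000450-32000749, plus strand: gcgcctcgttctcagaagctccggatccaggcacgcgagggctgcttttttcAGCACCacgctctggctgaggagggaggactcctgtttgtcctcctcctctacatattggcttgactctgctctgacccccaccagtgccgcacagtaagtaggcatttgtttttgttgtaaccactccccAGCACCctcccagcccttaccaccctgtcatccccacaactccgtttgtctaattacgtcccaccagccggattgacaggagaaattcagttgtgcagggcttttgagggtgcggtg

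AGCACC was in the windows of Nyap2 and Trim9, which rose, and stood at 2 places in that of Nsg2, which fell. It was in neither the window of Amph, where no hexamer matched, nor the other window of Nsg2. That other window of Nsg2 is not printed, and no hexamer matched in it either. GGGCGG was in the window of Trim9. The GC content was 41.7% for Nyap2, 61% for Amph and 65% for Trim9. For Nsg2 it was 56% in the window printed and 47% in the other. The median was 52.7% over all windows and 57.5% over those of members.

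Over the members, 30 of the 41 measured had an entry, with 42 windows in all, and 11 had none. AGCACC was in 9 of the 42 windows, against 16.2% of all 32851 promoter windows of the same length. GGGCGG was in 17 of them (35.7% of all windows), GGACAG in 11 (22.2%) and TATAAA in 3 (13.6%). CATGTG was in 1 (14.2%) and TAATCC in 1 (7.06%). A match is a run of letters and not a bound site, and a window without one says nothing of the factor.

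Among the other genes of transmitter release, Syt14 was the member whose values disagreed. It encodes a synaptotagmin that lacks the calcium-binding residues of the family. Its brightest probe set read 7.64, 7.71, 7.72 and 9.16 in the controls and 7.96, 8.36 and 7.73 in the deficient arrays. Control 4 was above every other array, and the difference was -0.04 (SE 0.38). With its 8 probe sets averaged, the controls read 4.95, 4.99, 4.98 and 5.10 and the deficient arrays 5.64, 5.57 and 5.58. There the groups were apart and the averaged value rose by 0.59 (SE 0.08). Only 1 of the 8, the brightest, had a control mean above the median of the table, 6.22. The rise on the average therefore comes from probe sets of low signal. Of the 8 probe sets 7 were higher, and the 1 that passed differed by 1.54.

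Vamp2, the vesicle SNARE synaptobrevin 2, had the highest mean signal of the release genes. It read 10.39, 10.46, 10.59 and 10.61 in the controls and 10.38, 10.54 and 10.58 in the deficient arrays, a difference of -0.01 (SE 0.11). The arrays of the groups were fully mixed. Syt1, the calcium sensor of fast release, read 6.25, 6.16, 6.69 and 7.79 in the controls and 6.96, 7.24 and 6.74 in the deficient arrays. Its difference was 0.26 (SE 0.38) and did not pass, with control 4 the highest array, although all 13 of its probe sets were higher, with a median of 0.51. The other release genes did not pass on either value. Rims1, a scaffold of the active zone, differed by 0.26 (SE 0.16), and Doc2b, a calcium sensor of spontaneous release, by 0.15 (SE 0.15). Syt2, a second fast sensor, differed by 0.06 (SE 0.13), and the complexin gene Cplx2 by 0.02 (SE 0.27). The SNARE genes Stx8 and Snap47 differed by -0.12 (SE 0.18) and -0.09 (SE 0.20). Over the 10 release genes the median difference was 0.04.

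Neither gene for a granule protein passed on either value. Scg2 encodes secretogranin II, a core protein of dense-core granules and the member of its group with the highest mean signal. It read 5.68, 7.36, 7.36 and 6.52 in the controls and 5.26, 5.77 and 5.9995 in the deficient arrays. Control 1 lay among the deficient arrays, and the difference of -1.05 (SE 0.42) did not pass. Its 6 probe sets were split, 3 higher and 3 lower. Chga, which encodes chromogranin A of the same granules, differed by 0.25 (SE 0.23).

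None of the 5 genes of postsynaptic scaffolds and organisers passed the limma threshold on either value with all arrays, and 1, Homer1, had an unadjusted p under 0.05 on the brightest probe set. Gphn, which encodes gephyrin, the scaffold under glycine and GABA-A receptors, had the highest mean signal among them. It read 10.08, 10.36, 10.24 and 10.29 in the controls and 10.49, 10.48 and 10.38 in the deficient arrays. The groups did not overlap, but the lowest deficient array was 10.38 and the highest control 10.36, and the difference was 0.21 (SE 0.10). Homer1, a scaffold that links glutamate receptors to calcium stores, read 8.95, 8.60, 8.47 and 8.76 in the controls and 8.15, 8.35 and 7.90 in the deficient arrays. All deficient arrays were below the controls, 15 of 19 probe sets were lower, and the difference was -0.56 (SE 0.15). Dlg4 (PSD-95) differed by 0.03 (SE 0.15), the AMPA receptor scaffold Grip1 by 0.17 (SE 0.16) and the adhesion organiser Lrfn5 by -0.29 (SE 0.15).

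The 4 transmitter receptor genes had control means from 4.88 to 6.29, and none passed in limma, 0 of them with an unadjusted p under 0.05. Gria1, a subunit of the AMPA receptor, had the highest mean signal of these. It read 6.30, 6.42, 6.61 and 5.82 in the controls and 5.83, 6.28 and 7.03 in the deficient arrays, which gave a difference of 0.09 (SE 0.30). The groups overlapped over most of their range. The GABA-A receptor subunit genes Gabra6 and Gabrb2 differed by -0.24 (SE 0.34) and -0.05 (SE 0.14), and the glycine receptor subunit gene Glra1 by -0.10 (SE 0.18). In these 3 the control mean was below the median of the table.

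Of the genes of calcium entry and signalling, only Nyap2 passed on either value. Cacna1g, a T-type calcium channel, read 10.12, 10.21, 10.06 and 10.84 in the controls and 9.68, 10.44 and 9.93 in the deficient arrays. The groups overlapped, with control 4 highest, and the difference was -0.29 (SE 0.24). Its probe sets leaned one way: 41 of 43 were lower, with a median of -0.28. In 10 of them the groups did not overlap, and none passed in limma, with 6 at an unadjusted p under 0.05. The shares of all probe sets for the last 2 counts were not worked out, so nothing is read from the 10 or the 6. Cacna1e, an R-type channel, differed by -0.29 (SE 0.16), and Camk2b, a subunit of the calcium- and calmodulin-dependent kinase of synapses, by 0.03 (SE 0.24).

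In the group of motors and cytoskeleton, the probe sets past the threshold lay mostly in Ank3, the gene of ankyrin-G, which anchors channels at the axon initial segment. Its brightest probe set read 9.92, 9.92, 10.0045 and 10.22 in the controls and 10.14, 10.33 and 10.27 in the deficient arrays. Control 4 lay within the range of the deficient arrays, and the difference of 0.23 (SE 0.11) did not pass. Most of its other probe sets differed more. On the mean of all 54, the controls read 5.94, 5.96, 6.03 and 5.47 and the deficient arrays 7.55, 7.48 and 7.43. The groups were apart, and Ank3 rose by 1.64 (SE 0.13) on that value, from 5.85 ± 0.25 (SD, n = 4) to 7.49 ± 0.06 (SD, n = 3).

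Of the 54 probe sets of Ank3, 53 were higher in the deficient arrays, 46 had groups that did not overlap and 30 passed. The differences ran from -0.23 to 3.05 with a median of 1.71, and 44 were over 1. The 6 probe sets with a control mean above 8 did not all respond alike. In 3 of them the groups differed by under 0.5: from 10.02 to 10.25, from 9.21 to 9.57 and from 8.17 to 7.94. In the other 3 they differed by over 1 and passed: from 8.61 to 9.98, from 8.14 to 9.93 and from 8.11 to 9.57. The number of Ank3 probe sets past the threshold ranged from 12 to 35 when 1 array was left out, and was 17 without control 1 or control 3, 19 without control 2, and 12, 13 and 14 without each deficient array. The members' probe sets past the threshold then numbered 27, 28, 35 and 62 without controls 1 to 4 and 20, 21 and 22 without each deficient array. Probe sets of 1 gene share the same arrays and are not replicates.

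**Figure D3:**
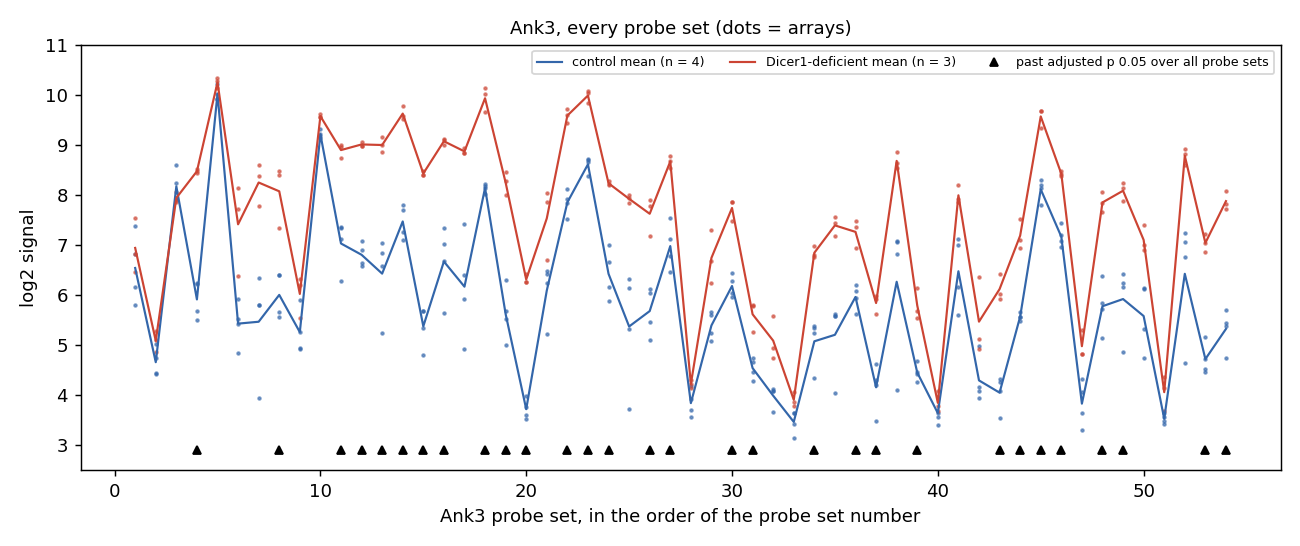
Log2 signal of the 54 probe sets of Ank3 in the order of their probe set numbers, with lines through the mean of the 4 control arrays (blue) and the 3 Dicer1-deficient arrays (red), dots for single arrays and triangles for the 30 probe sets past the threshold. The lines come close at the brightest probe set, from 10.02 to 10.25, and are apart over most of the others.

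Map2, the microtubule-associated protein of dendrites, read 9.31, 8.98, 9.20 and 9.62 in the controls and 9.43, 10.04 and 9.89 in the deficient arrays. The groups overlapped through control 4 and deficient array 1, and the difference of 0.51 (SE 0.19) did not pass. With its 21 probe sets averaged the controls read 6.40, 6.27, 6.45 and 6.10 and the deficient arrays 6.92, 6.93 and 6.94. The groups were apart there and Map2 rose by 0.63 (SE 0.10). Of its probe sets 20 were higher and in 14 the groups did not overlap. None passed singly in limma, with 14 at an unadjusted p under 0.05. The shares of all probe sets without overlap, or at that unadjusted p, were not worked out, so nothing is read from these counts of 14.

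Kif1a, a kinesin that carries synaptic vesicle precursors, had the highest mean signal of its group. It read 11.61, 11.84, 11.81 and 11.75 in the controls and 11.83, 11.93 and 11.84 in the deficient arrays. The groups overlapped, and the difference was 0.11 (SE 0.10). Kif21b, another neuronal kinesin, differed by 0.27 (SE 0.14). Mapt, which encodes the axonal protein tau, differed by -0.48 (SE 0.32), with control 4 at 7.47 and the other controls between 6.10 and 6.48.

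**Figure D4:**
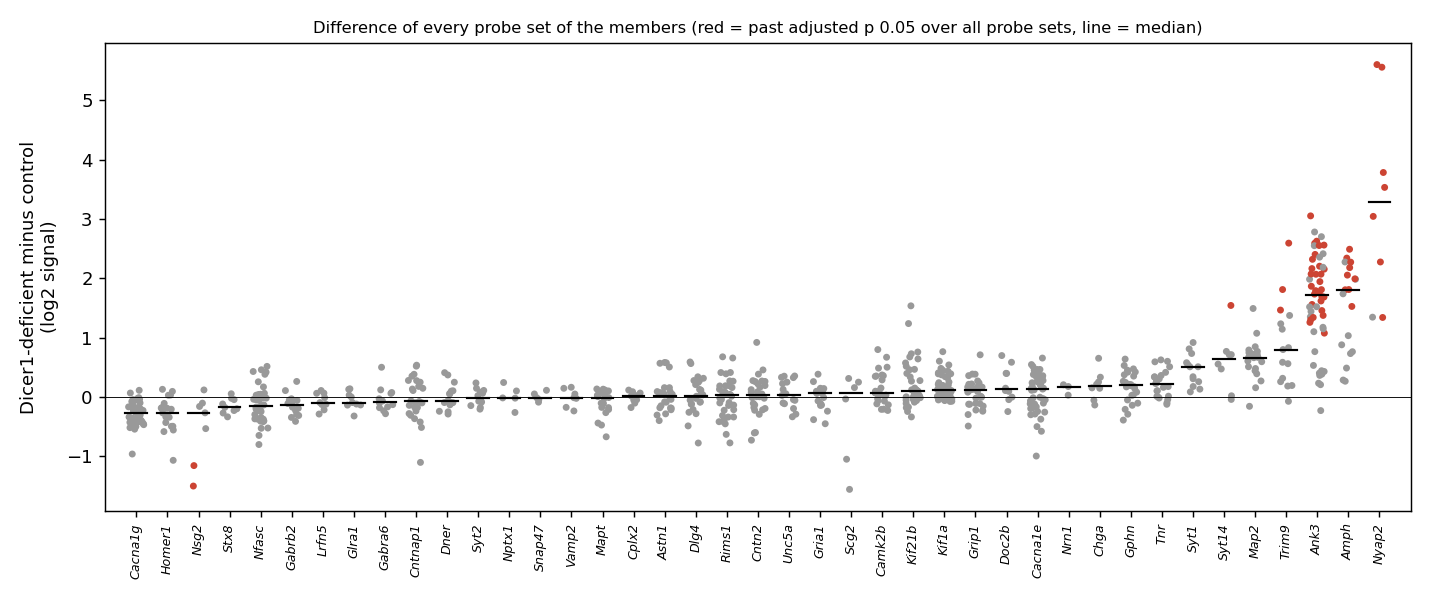
Difference in log2 signal, Dicer1-deficient minus control, of each of the 810 probe sets of the 41 measured members, with the median of a gene as a line and genes in the order of that median. The 52 red dots are probe sets past the threshold over all 65535. Ank3, Amph and Nyap2 hold most of them, and Cacna1g has the lowest median at -0.28.

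Among the 9 genes of adhesion, axons and the neuronal surface, none passed in limma on either value, with a median difference of 0.20. On the brightest probe set 2 of them, Nfasc and Nptx1, had an unadjusted p under 0.05. Cntn2, a contactin of axons, had the highest mean signal. It read 7.68, 8.76, 8.45 and 9.46 in the controls and 8.55, 8.94 and 9.06 in the deficient arrays. The controls spread over a wider range than the deficient arrays and held both the lowest and the highest array, and the difference was 0.26 (SE 0.37). Nfasc, the neurofascin of nodes and axon initial segments, differed by 0.51 (SE 0.22) on the brightest probe set and by -0.12 on the mean of 36. The extracellular matrix gene Tnr differed by 0.34 (SE 0.35), Nptx1, a secreted pentraxin that clusters AMPA receptors, by 0.24 (SE 0.09), and the neuritin gene Nrn1 by 0.20 (SE 0.14). The differences of Dner, a Notch-binding surface protein, and Unc5a, a netrin receptor, were -0.09 (SE 0.23) and -0.10 (SE 0.19). Cntnap1, a paranodal partner of contactin, differed by -0.14 (SE 0.31), and Astn1, a guide of neurons along glia, by -0.15 (SE 0.30).

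Controls varied among themselves. The SD of the controls ran from 0.07 to 0.81 over the members with a median of 0.29, against 0.21 over all genes. Control 4 was the highest of the controls in 24 members (58.5%, against 49.2% of all genes) and the lowest in 8 (19.5%, against 30.8%). It stood more than 1 above the mean of the other controls in 5 members: Syt14 by 1.47, Syt1 by 1.42, Mapt by 1.22, Cntnap1 by 1.18 and Cntn2 by 1.17. In Trim9 and Amph it lay lower than that mean, at -0.91 and -0.86. Without control 4, the 4 calls on the brightest probe set stood, and on the mean of probe sets 10 members passed, against 17% of all genes. The 3 added were Chga at 0.27, Homer1 at -0.38 and Stx8 at -0.24.

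Other genes of the same machinery came from a list of 211 that holds none of the members, of which 25 were measured. The cell adhesion gene Nrcam fell, from 9.74 ± 0.18 (SD, n = 4) to 8.90 ± 0.14 (SD, n = 3), a difference of -0.84 (SE 0.13), and no gene passed the limma threshold as higher. At an unadjusted p under 0.05 there were 5 genes, Nrcam and 4 that were higher. The 4 were Cacng4 by 0.87, Cacng5 by 0.76, Grik2 by 0.45 and Lrrtm3 by 0.29. The share of all genes at that level was not worked out, so nothing is read from these 5. The share called was 4%, 1 of 25 genes, which is close to the 2.33% of all genes, and the median difference was 0.07. With probe sets averaged 2 of 25 passed (5.86% of all genes), Nrcam at -0.60 and, higher by 0.56, Cacng4, a gene for an AMPA receptor auxiliary subunit. Without control 2, or without any 1 of the deficient arrays, no gene of this list passed on the brightest probe set, without control 3 only Cacng4 did, and without control 4 there were 3.

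Markers of neural cells that a dissected RPE could carry along were set beside these results. Of 18 general neuron markers 1 was measured, the neurofilament gene Nefh, at 5.41 to 5.97 in the controls and 5.74 to 6.19 in the deficient arrays. The 1 measured of 8 genes listed for ganglion cells, Atoh7, was at 5.67 to 5.90 and 5.72 to 5.78. Its control mean was below the median of the table, and this 1 gene does not show whether ganglion cells were present. The 7 measured of 18 photoreceptor markers had a mean of 5.37 to 6.11 in the controls and 6.05 to 6.48 in the deficient arrays. None of the 7 passed in limma, 2 (Pde6g, from 5.82 to 7.20, and Rp1, from 5.26 to 6.02) had an unadjusted p under 0.05, and 5 had a control mean below the median of the table. On the mean of probe sets none passed either, with 3 at an unadjusted limma p under 0.05. There Pde6g differed by 0.86 (SE 0.35), Sag by 0.64 (SE 0.22) and Rp1 by 0.50 (SE 0.18), while Gngt2 and Rdh12 were lower, at -0.07 and -0.03. The mean of 2 of 6 bipolar markers was 7.03 to 7.19 and 6.94 to 7.29. It joins Prkca, with group means of 9.41 and 9.19, and the far dimmer Grm6, with 4.84 and 4.97. The mean of 4 of 13 amacrine and horizontal cell markers was 6.72 to 6.93 and 6.76 to 6.97, with Tfap2a falling by 0.99 and Tfap2b differing by 0.86, which passed on the mean of its probe sets only.

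Glia, nerve and muscle were read in the same way. The mean of 4 of 7 markers of Mueller glia and astrocytes was 9.37 to 9.92 in the controls and 9.57 to 10.2 in the deficient arrays. It joins unlike signals: the control means were 12.42 for Glul and 10.99 for Sox9, but 7.99 for Gfap and 7.09 for S100b. Which cells of the samples, RPE or glia, gave the signals of these 4 genes was not tested. On the mean of probe sets 1 of the 4 passed, Sox9, higher by 0.33 (SE 0.08). The others did not pass and did not all go the same way: Glul by 0.27 (SE 0.08), Gfap by 0.83 (SE 0.81) and S100b by -0.28 (SE 0.13). The mean of 4 of 10 markers of Schwann cells and myelin was 9.11 to 9.50 and 8.76 to 8.99, so that the deficient arrays were all below the controls. On the mean of probe sets 1 of the 4 passed, Erbb3, lower by 0.39. There Cdh19 differed by -0.40, Pmp22 by -0.20 and Egr2 by 0.10, without passing. The mean of 10 of 14 muscle and endplate markers was 8.32 to 8.71 and 8.27 to 8.87. The log2 scale has no 0, and no list mean lay below the lower quartile of the table, 4.63, so these values do not show any of these cell types to be lacking. The part of these cells in the differences of the members was not tested.

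**Figure D5:**
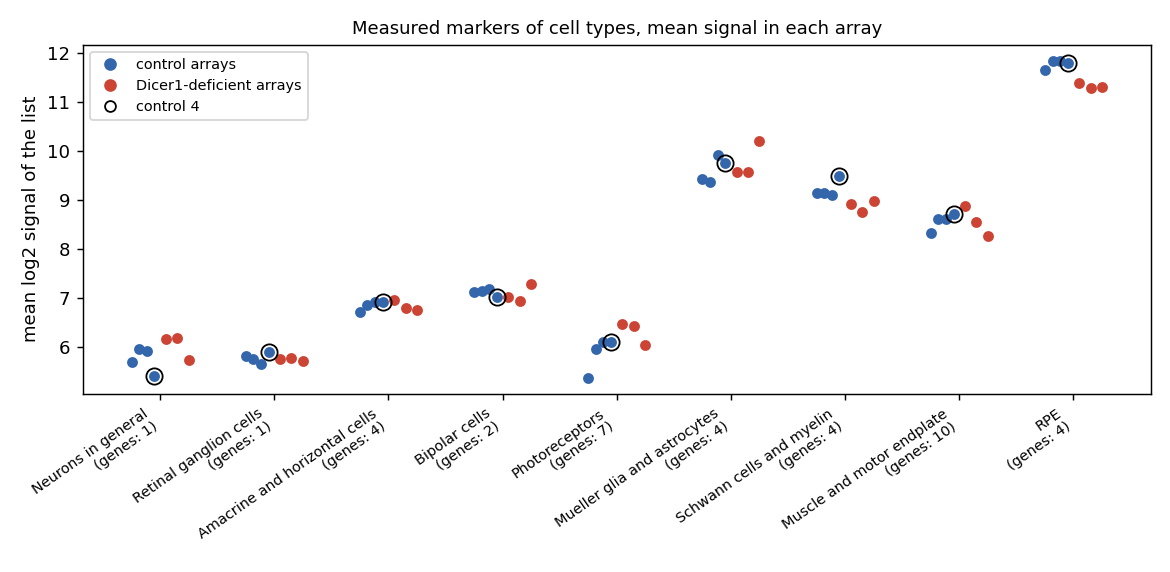
Mean log2 signal of the measured markers of 9 cell types in each of the 4 control arrays (blue, with control 4 ringed) and the 3 Dicer1-deficient arrays (red). RPE markers and Schwann cell markers are lower in every deficient array, at 11.29 to 11.39 and 8.76 to 8.99, and the photoreceptor markers overlap between the groups.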

How the data were processed

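Per the labels' protocols, RNA came from the miRNeasy kit and carried biotin on Affymetrix arrays. The values are log2 signals as the authors deposited them, in 1 table, on a scale judged from their range (2.71 to 13.5). The submitters' processing notes name RMA and Partek 6.6 without their roles. Genome build and filters: not given in the sources used here. Of the 65535 probe sets 53644 had 1 gene symbol, 877 several, and 11014 are unnamed here. Symbols were current for 39 members and updated for Nyap2 and Map2.

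Groups were compared in R 4.3.3 with limma 3.58.1 (two-sided, lmFit and eBayes), tested on simulated data. P-values were adjusted by Benjamini-Hochberg over 5017 genes or over the 65535 probe sets. Tables and plots used Python 3.11.15, pandas 2.3.3 and matplotlib 3.10.9. The number of arrays limits the precision. The members and lists were chosen with earlier results of these data known. All measured members are named. Every array is shown for those past the threshold on either value and for the member with the highest mean signal in each of 7 roles, and for Syt1 and Homer1, chosen after their values were seen. Alternatives changed the value per gene, normalization, a filter on dim values, moderation, weights, the threshold and the arrays.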

Additional observations from a re-analysis of the deposited data

Results flagged for a closer look

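In 4 values, control 4 stood apart from the other 3 controls, with a gap to the nearest of them that, as a ratio to the range of the group, was above Dixon's critical value. On the brightest probe set these were Syt14 (ratio 0.951, control 4 at 9.16 and the others between 7.64 and 7.72), Syt2 (ratio 0.908, 5.78 against 5.35 to 5.39) and Gabrb2 (ratio 0.890, 5.77 against 5.30 to 5.35). In each of these control 4 was the highest control. On the mean of probe sets it was Ank3 (ratio 0.851), with control 4 the lowest at 5.47 and the others between 5.94 and 6.03. Chance gives such a ratio in about 1 in 20 groups. It was met on the brightest probe set by 3 of 41 members (7.32%) and by 11.2% of all genes.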

How the results depend on the processing

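With the brightest probe set, 4 members passed with all arrays and 2 to 4 with 1 array left out. Nyap2 and Nsg2 passed in every such setting, and Amph and Trim9 were lost without control 1, control 2 or any deficient array, which also leaves fewer samples. The count was 7 on the mean of probe sets and 10 on that mean without control 4. On the mean, 6 to 10 passed with 1 array left out, an alternative chosen after seeing the data. The member probe sets past the threshold numbered 52, and 20 to 62 with 1 array left out. In the wider list 1 gene passed, and 0 to 3 with 1 array left out. It was 2 on the mean of probe sets, after quantile normalization again, with a filter on dim values, with array weights and at an adjusted p of 0.1, and 5 on the mean without control 4. The cause of these changes was not tested. Syt14 turned from -0.04 to 0.59 on the mean of probe sets, and to 0.62 there without control 4. Over all genes, the calls were 71 higher and 46 lower, and on the mean without control 4 they were 338 higher and 515 lower. The filter on dim values removed Nsg2 and left 3 members past the threshold of 32 tested. The count of all genes past the threshold was 117, and 33 to 260 with 1 array left out, 294 on the mean of probe sets, 853 on that mean without control 4, 385 with array weights and 213 at an adjusted p of 0.1. Of the other comparisons of single members with an alternative, 10 lost and 7 gained a call. In 614 more the call stood, but the sign turned in 52 of them, over 17 members whose differences did not pass. A call that stood could still change in size. On the mean of probe sets Nyap2 went from 5.60 to 3.31, Trim9 from 2.59 to 0.88 and Nsg2 from -1.50 to -0.52. A further 14 without a call moved by more than the spread between replicates, 8 of them with the sign turned. No paired analysis was possible because the labels give nothing that pairs a control array with a deficient one.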
